A study of Mus musculus with 12 samples.

Results

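The Hox genes and their TALE homeobox cofactors (the Meis, Pbx and Pknox families) were examined in adipocyte precursor cells of 2 mouse fat depots after a short high-fat feed. Members were taken by gene symbol from the deposited count table. The rule itself used no values, but it was chosen with earlier results of these data known. The symbols were Hoxa to Hoxd with a number and the Meis, Pbx and Pknox symbols with a number, and 35 of the 14398 genes in the table matched. They were 26 Hox genes and all 9 TALE cofactors named by these symbols. Of the 39 Hox symbols in RefSeq, 13 are not analysed here. Cluster a (chromosome 6) gave 9 members, cluster b (chromosome 11) 7, cluster c (chromosome 15) 7 and cluster d (chromosome 2) 3. All 35 members were among the 14266 genes past the filter on low counts.

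Hox genes encode homeodomain transcription factors and lie in clusters, where each gene's number follows its place along the chromosome. In the embryo, low-numbered genes are used towards the head and high-numbered genes towards the tail, and adult fibroblasts and fat cells keep a Hox pattern that follows their place in the body. PBX and MEIS or PKNOX proteins, of the three-amino-acid-loop-extension (TALE) class, bind DNA together with HOX proteins and sharpen their choice of sites. Here numbers 1 to 3 are called anterior, 4 to 8 central and 9 to 13 posterior.

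The 4 groups were perigonadal (VWAT) cells on high-fat diet (VWAT_HFD), VWAT cells on standard diet (VWAT_SD), inguinal subcutaneous (SWAT) cells on high-fat diet (SWAT_HFD) and SWAT cells on standard diet (SWAT_SD). Each group had 3 libraries, and each library pooled tissue of 3 mice, so the spread between libraries is narrower than that between single mice. The animals of every group were males of the inbred strain C57Bl6/J, 6 to 8 weeks old. The HFD, with 60% lard, lasted 3 days, and SD samples were labelled day 0. Precursors had been sorted as CD29+, CD34+ and Sca1+ cells without CD45 or CD31, and could carry CD24 or not.

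Libraries held 17.6 to 56.1 M gene counts (M, 1e6), and 1 count stood for 0.0168 to 0.0669 counts per 1e6 (CPM). All 8 precursor markers on the list used (among them Pdgfra, Cd34 and Ly6a) were present in the table, with a summed level of 9850 to 71700 CPM. The largest part of that sum was Col1a1, with 4680 to 64300 CPM. The 7 leukocyte markers in the table summed to 5.85 to 38.6 CPM and the 6 endothelial markers to 4.72 to 32.1 CPM. These are whole-population RNA values, so fewer cells of a type and less RNA per cell cannot be told apart. CPM are scaled by TMM and not by gene length, so levels are compared between groups and not between genes.

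The depots differed along the Hox clusters by position. In VWAT 6 of 7 posterior genes (all but Hoxd9) were lower than in SWAT, and many anterior and central genes of cluster a were higher. Every gene in the table reached at least 20 counts in some library. Hoxc11 and Hoxb9 reached that only in SWAT libraries, so they were in the table only through the depot where they are higher. Their direction therefore adds no support, and genes under that count in every library would be absent. On HFD, 18 of 35 members (51.4%) passed the test of VWAT against SWAT (edgeR's quasi-likelihood F test, Benjamini-Hochberg adjusted p under 0.05 over all genes), against 26.8% of all genes tested. Of the 18, 12 were higher in VWAT and 6 were lower, where 13.4% of all genes passed in each direction. On SD the count was again 18, with 12 higher (13.2% of all genes were) and 6 lower (12.5% of all genes were), against 25.7% of all genes. On each diet the 18 members and the 6 lower ones include Hoxc11 and Hoxb9, so these counts rest partly on how genes entered the table. Shares without them were not computed. In all, 17 members, these genes among them, passed on both diets in the same direction. Each diet had its own libraries on both sides, but both contrasts came from the same fit. The share of all genes that passed on both diets was not computed, so the count of 17 has no background to be set against. Libraries of the depots did not overlap in 60% of members on HFD, against 36% of all genes. On SD they did not overlap in 57.1% of members, against 45.1% of all genes. Lack of overlap in the genes below is thus common in the whole table.

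The posterior class had the depot medians farthest from 0. On each diet 6 of its 7 genes were lower in VWAT and none passed as higher. Among the 6 were Hoxc11 and Hoxb9, which were in the table only through SWAT. With both genes counted, the class median of the log2 difference between VWAT and SWAT was −2.86 on HFD and −2.18 on SD. The SD median is the value of Hoxb9 itself. The remaining lower genes were Hoxa9, Hoxa10, Hoxc9 and Hoxc10, and medians without Hoxc11 and Hoxb9 were not computed. The central class had a median of 0.72 on HFD and 0.67 on SD, with 7 of 13 genes higher on HFD and 8 of 13 on SD, and none lower. In the anterior class 2 of 6 genes (Hoxa2 and Hoxa3) were higher on each diet, with medians of 0.40 on HFD and 0.42 on SD. The median over all genes tested was 0.02 on each diet.

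**Figure D1:**
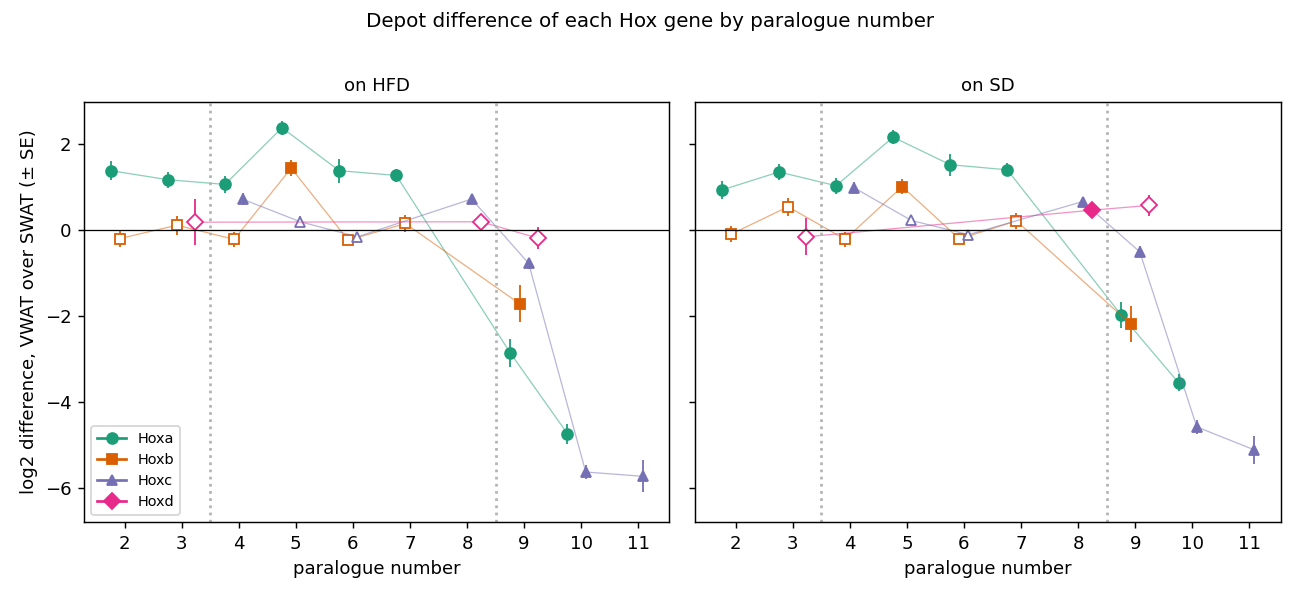
Log2 difference of VWAT against SWAT (y axis, bars are ± 1 SE of the fit, filled symbols passed the test) by paralogue number (x axis), one colour per cluster, on HFD and SD. Cluster a lies above 0 up to Hoxa7 and below 0 from Hoxa9. Cluster c lies below 0 at Hoxc6, which did not pass, and from Hoxc9. Hoxd9 lies at −0.18 on HFD and 0.58 on SD.

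Hoxc11, a posterior gene known for its part in hindlimb and lower-trunk patterning, had the largest depot difference among members. Its levels were 0.0505, 0.0401 and 0.151 CPM in VWAT_HFD and 4.95, 3.71 and 4.22 CPM in SWAT_HFD. On SD they were 0.085, 0.148 and 0.222 CPM in VWAT_SD and 4.99, 6.32 and 4.45 CPM in SWAT_SD. All 6 VWAT libraries lay far below all 6 SWAT libraries, and in VWAT the values rest on few reads. The 3 VWAT_HFD libraries held 12 counts together against 397 in SWAT_HFD, and the VWAT_SD libraries held 24 against 650 in SWAT_SD. The fitted difference was 53-fold on HFD (log2 −5.73, SE 0.37, adjusted p = 1.1e-07) and 34.5-fold on SD (log2 −5.11, SE 0.33, adjusted p = 9.87e-08), lower in VWAT in both. Counting error alone gave a 95% interval of 30.6 to 105-fold on HFD and 24 to 56.7-fold on SD.

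Hoxc10, which patterns the lumbar region and hindlimb in mice, had 0.489, 0.602 and 0.452 CPM in VWAT_HFD against 26.8, 23 and 27.1 CPM in SWAT_HFD. It had 1.09, 0.719 and 0.997 CPM in VWAT_SD against 23, 20.2 and 24.9 CPM in SWAT_SD. No VWAT library came near any SWAT library. The difference was 49.5-fold on HFD (log2 −5.63, SE 0.17, adjusted p = 2.38e-10) and 24-fold on SD (log2 −4.58, SE 0.16, adjusted p = 4.35e-10), lower in VWAT. Hoxc9, its neighbour towards the anterior end, differed much less, with 8.31 to 9.16 CPM in VWAT_HFD against 13.9 to 16.3 CPM in SWAT_HFD. On SD it had 9.9 to 12.6 CPM in VWAT_SD against 14.2 to 19.5 CPM in SWAT_SD (log2 −0.50, adjusted p = 0.0133). Hoxc9 no longer passed on SD when VWAT_SD replicate 2 (adjusted p = 0.0655) or SWAT_SD replicate 3 (0.0541) was left out, or when counts were scaled by library size alone (0.147).

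Hoxa10, a posterior gene known for its role in the uterus and the lumbar skeleton, had 0.303, 0.361 and 0.409 CPM in VWAT_HFD against 10.1, 8.73 and 9.9 CPM in SWAT_HFD. It had 0.799, 0.487 and 1.02 CPM in VWAT_SD against 8.38, 9.79 and 9.03 CPM in SWAT_SD. The depots did not overlap on either diet. The difference was 26.7-fold on HFD (log2 −4.74, SE 0.23, adjusted p = 8.93e-09) and 11.7-fold on SD (log2 −3.55, SE 0.20, adjusted p = 3.95e-08). Hoxa9, best known with Meis1 in blood cell growth and leukaemia, had 0.27, 0.441 and 0.516 CPM in VWAT_HFD against 2.81, 2.69 and 3.29 CPM in SWAT_HFD. On SD it had 1.14, 0.444 and 0.646 CPM in VWAT_SD against 2.58, 3.16 and 3.21 CPM in SWAT_SD, again without overlap. Its difference was 7.25-fold on HFD (log2 −2.86, SE 0.32, adjusted p = 1.8e-05) and 3.94-fold on SD (log2 −1.98, SE 0.30, adjusted p = 0.000216).

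Hoxb9, a thoracic patterning gene, was the posterior member of cluster b and was low in every library. It had 0.135, 0.201 and 0.086 CPM in VWAT_HFD against 0.268, 0.588 and 0.479 CPM in SWAT_HFD. It had 0.153, 0.0846 and 0.129 CPM in VWAT_SD against 0.631, 0.693 and 0.321 CPM in SWAT_SD. The depots did not overlap, with summed counts of 22 in VWAT_HFD, 46 in SWAT_HFD, 20 in VWAT_SD and 72 in SWAT_SD. The difference was 3.28-fold on HFD (adjusted p = 0.00892) and 4.54-fold on SD (adjusted p = 0.00135). Hoxd9, the posterior member of cluster d, did not pass. Its log2 difference was −0.18 (95% interval −0.67 to 0.31) on HFD and 0.58 (0.12 to 1.05, adjusted p = 0.0928) on SD, where it passed with limma voom (0.66, adjusted p = 0.0403), with library size as the only scaling (0.80, adjusted p = 0.0193) and without SWAT_SD replicate 3 (0.82, adjusted p = 0.0235).

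In cluster a the direction turned between Hoxa7 and Hoxa9, which are neighbours in the table as no Hoxa8 exists in mouse. Hoxa2 to Hoxa7 were all higher in VWAT on both diets, and Hoxa9 and Hoxa10 lower. Hoxa5, needed for lung and neck-to-chest patterning, had 21.2, 25.1 and 30.5 CPM in VWAT_HFD against 6.22, 4.49 and 4.31 CPM in SWAT_HFD. It had 26.6, 28.3 and 32.1 CPM in VWAT_SD against 5.95, 6.37 and 7.1 CPM in SWAT_SD. The lowest VWAT library was well above the highest SWAT library, and the difference was 5.25-fold on HFD (log2 2.39, SE 0.16, adjusted p = 1.79e-07) and 4.51-fold on SD (log2 2.17, SE 0.16, adjusted p = 2.8e-07).

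Hoxa6, a thoracic patterning gene, had 4.6, 5.56 and 10 CPM in VWAT_HFD against 3.41, 2.29 and 2.27 CPM in SWAT_HFD. It had 7.69, 8.97 and 10.9 CPM in VWAT_SD against 3.35, 3.29 and 2.8 CPM in SWAT_SD. VWAT libraries were all higher, and VWAT_HFD replicate 3 lay within the range of the VWAT_SD libraries. The log2 difference was 1.39 (SE 0.28, adjusted p = 0.00196) on HFD and 1.53 (SE 0.26, adjusted p = 0.000623) on SD. Hoxa7 was also higher in VWAT, by 1.28 on HFD and 1.41 on SD on the log2 scale. For Hoxa2, Hoxa3 and Hoxa4 the log2 differences were 1.39, 1.18 and 1.07 on HFD and 0.94, 1.36 and 1.04 on SD.

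**Figure D2:**
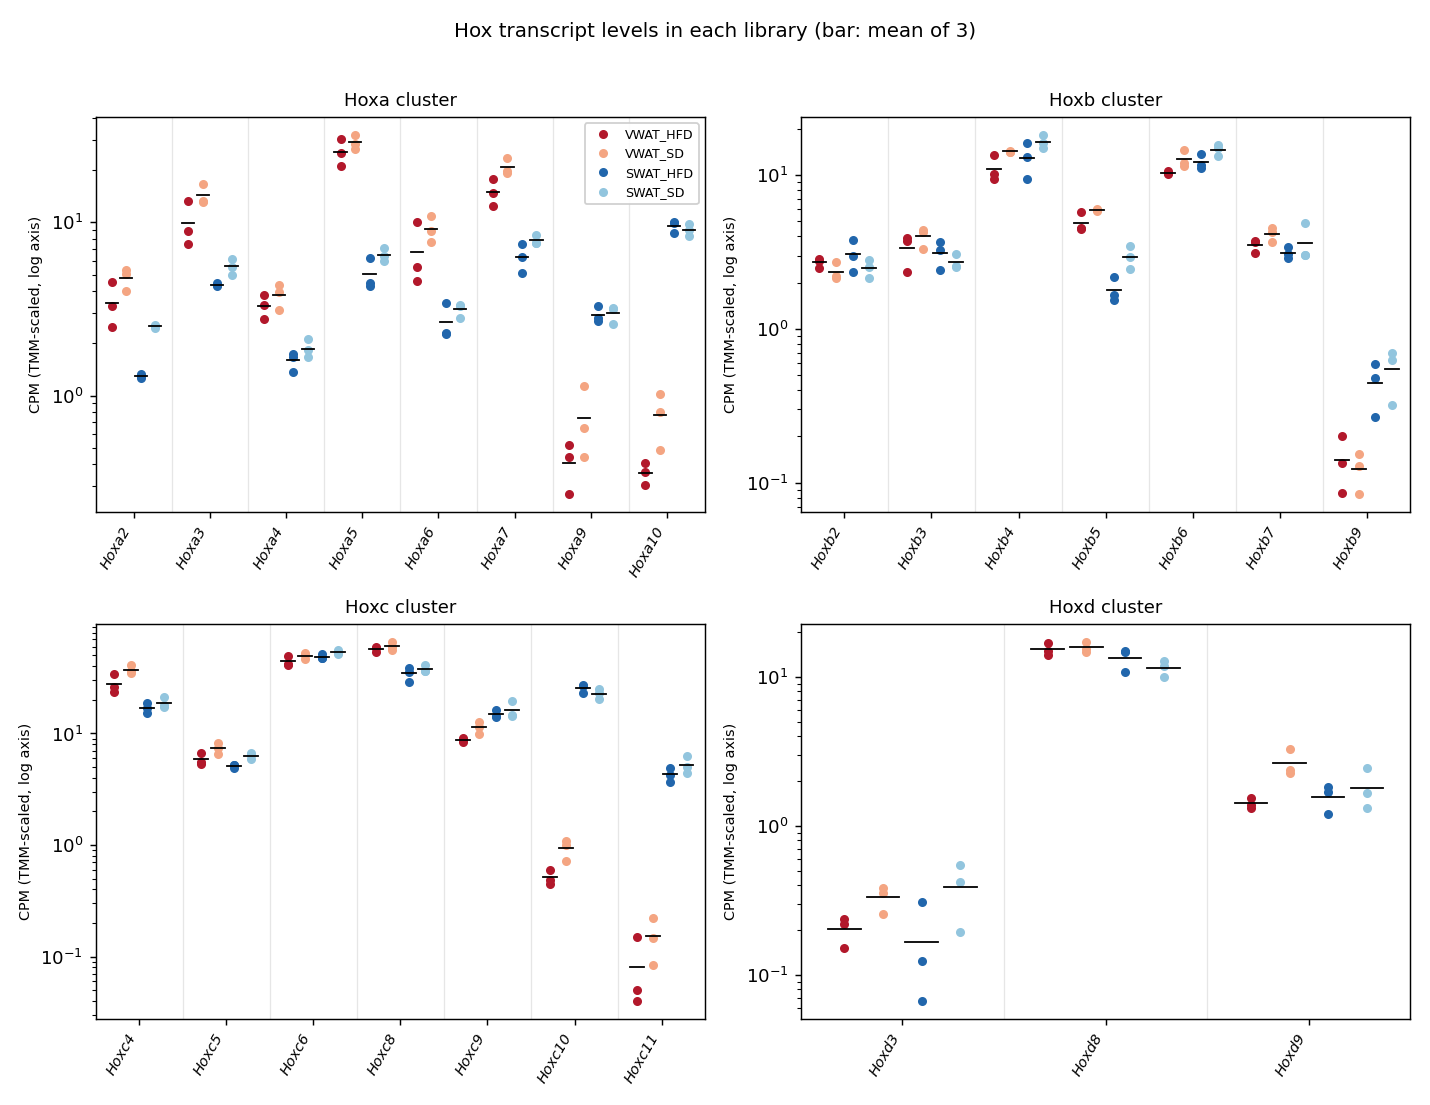
CPM of 25 Hox genes (y axis, log scale) in each of the 12 libraries, by cluster and number, with 1 point per library and a line at each group mean. Within each diet, VWAT and SWAT points do not overlap for any gene of Hoxa2 to Hoxa10, and VWAT points of Hoxa10, Hoxc10 and Hoxc11 lie far below SWAT points. Of all genes tested, 36% on HFD and 45.1% on SD do not overlap between depots.

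Sequences before the start sites are shown for genes from both sides of this turn, chosen among those whose window holds no annotated exon. RefSeq windows of 250 bases before the start (build GRCm38.p6, minus strand, 5′ to 3′, CG dinucleotides in capitals) are given for Hoxa5, which was higher in VWAT, and for Hoxa9 and Hoxa10, which were lower. Hoxa10 has 2 start sites. The window of Hoxa7, which lies next to the turn, overlaps an annotated exon and is not printed.
Hoxa5, chr6:52204588-52204837: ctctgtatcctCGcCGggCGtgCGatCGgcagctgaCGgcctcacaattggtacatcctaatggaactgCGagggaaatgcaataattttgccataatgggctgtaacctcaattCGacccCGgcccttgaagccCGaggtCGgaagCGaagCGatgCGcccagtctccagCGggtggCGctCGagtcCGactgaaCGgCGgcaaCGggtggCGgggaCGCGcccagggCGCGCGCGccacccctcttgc
Hoxa9, chr6:52227371-52227620: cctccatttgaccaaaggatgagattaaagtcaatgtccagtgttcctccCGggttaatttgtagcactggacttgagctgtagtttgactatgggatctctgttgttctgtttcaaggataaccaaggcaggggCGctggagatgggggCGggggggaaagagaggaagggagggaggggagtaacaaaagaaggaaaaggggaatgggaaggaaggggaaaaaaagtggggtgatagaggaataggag
Hoxa10, chr6:52234940-52235189: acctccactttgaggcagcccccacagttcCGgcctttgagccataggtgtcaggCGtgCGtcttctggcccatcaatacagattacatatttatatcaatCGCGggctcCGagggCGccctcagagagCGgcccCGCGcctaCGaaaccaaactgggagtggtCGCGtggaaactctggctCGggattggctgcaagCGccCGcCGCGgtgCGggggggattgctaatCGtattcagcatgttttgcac
Hoxa10, second start, chr6:52240855-52241104: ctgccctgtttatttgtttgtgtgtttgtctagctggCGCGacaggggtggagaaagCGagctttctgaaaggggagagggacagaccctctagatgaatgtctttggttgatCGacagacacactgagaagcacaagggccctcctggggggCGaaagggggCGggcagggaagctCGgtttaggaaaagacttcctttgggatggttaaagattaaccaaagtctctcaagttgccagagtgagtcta

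The Hoxa5 window held 28 CG, and 7.61% of the 32851 windows of all genes held at least as many. The Hoxa9 window held 3 CG (71% of windows held at least as many), and the Hoxa10 windows held 20 (17.9%) and 7 (46.3%). The Hoxa7 window held 7 (46.3%), as many as the second Hoxa10 window, and the 28 of Hoxa5 were the most among member windows. Windows were at hand for 17 members, 18 in all, with a median of 12 CG against 6 over all windows. The 9 windows of members higher in VWAT on SD held 6 to 28 CG, and the 3 windows of members lower in VWAT held 3 to 20, so the ranges overlapped. The motif CCAAT, searched on both strands, stood in 9 member windows (33.8% of all windows hold it). The MEIS-type motif TGACAG stood in those of Hoxa2 and Hoxa3 (15.9% of all windows), and the joint PBX-HOX motif TGATTNAT in that of Hoxa2 (2.82%). The retinoid-receptor core motif AGGTCA stood in those of Hoxb4, Hoxc4, Hoxd3 and Hoxd8 (14% of all windows). No motif contains another, and a match describes the window only.

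In cluster b only Hoxb5 and Hoxb9 passed on either diet. Hoxb5, a gene of enteric nerve and lung development, had 4.52, 4.45 and 5.74 CPM in VWAT_HFD against 1.67, 2.17 and 1.54 CPM in SWAT_HFD. It had 5.94, 5.82 and 6.02 CPM in VWAT_SD against 2.93, 2.47 and 3.44 CPM in SWAT_SD. The depots did not overlap, and the difference was 2.73-fold on HFD (adjusted p = 3.87e-05) and 2.03-fold on SD (adjusted p = 0.000428). Hoxb2 and Hoxb3, which act in the hindbrain, Hoxb4, which supports blood stem cells, and Hoxb6 and Hoxb7, which pattern the trunk, had log2 differences of −0.23 to 0.16 on HFD and −0.21 to 0.55 on SD. None of these 5 passed.

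In cluster c, the direction of the genes that passed turned between Hoxc8 and Hoxc9. Hoxc4, a gene of the cervical and upper thoracic region, was higher in VWAT by 0.72 (adjusted p = 0.00151) on HFD and 0.99 (adjusted p = 0.000103) on SD on the log2 scale. Hoxc8, which patterns the thorax, had 54.2 to 59.8 CPM in VWAT_HFD against 29 to 38.9 CPM in SWAT_HFD, and 55.4 to 66.3 CPM in VWAT_SD against 36.2 to 40.7 CPM in SWAT_SD. Its log2 differences were 0.73 and 0.67 (adjusted p = 0.000214 and 0.000394 on HFD and SD). Hoxc5 and Hoxc6, which lie between them, did not pass. Hoxc6 lay below 0, at −0.15 on HFD (95% interval −0.32 to 0.03) and −0.10 on SD (−0.28 to 0.07). Hoxc5 had 0.20 on HFD and 0.23 on SD.

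In cluster d, Hoxd8 was higher in VWAT on SD, with 14.7 to 17.2 CPM in VWAT_SD against 9.95 to 12.7 CPM in SWAT_SD (log2 0.47, adjusted p = 0.0238). That call was lost when VWAT_SD replicate 1 or 2 or SWAT_SD replicate 1 or 2 was left out (adjusted p 0.0526 to 0.137). On HFD Hoxd8 did not pass, with 14 to 17 CPM in VWAT_HFD and 10.8 to 14.8 CPM in SWAT_HFD, and the diet effects were not shown to differ between depots (adjusted p of the interaction 0.858). Hoxd3, an anterior gene of the neck vertebrae, had 0.151 to 0.236 CPM in VWAT_HFD, 0.0669 to 0.309 CPM in SWAT_HFD, 0.258 to 0.381 CPM in VWAT_SD and 0.195 to 0.55 CPM in SWAT_SD, and did not pass. In the GENCODE annotation of a later build (GRCm38), 62.3% of its exon bases are shared with Hoxd4 or a further transcript on the same strand.

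Among the TALE cofactors Meis1 and Meis2 differed by depot on both diets, and no Pbx gene passed on either diet in the fit of all 12 libraries. Meis1, a direct DNA-binding partner of posterior HOX proteins, had 64.5, 65 and 85 CPM in VWAT_HFD against 28.1, 25.8 and 25.4 CPM in SWAT_HFD. It had 81.1, 83.9 and 88.2 CPM in VWAT_SD against 24.9, 27.6 and 25.5 CPM in SWAT_SD. Every VWAT library was over every SWAT library, and the difference was 2.71-fold on HFD (log2 1.44, SE 0.11, adjusted p = 4.8e-07) and 3.25-fold on SD (log2 1.70, SE 0.11, adjusted p = 9.87e-08). Meis2, its close relative, had 29.1 to 40.4 CPM in VWAT_HFD against 25.1 to 25.7 CPM in SWAT_HFD, and 38.9 to 41.7 CPM in VWAT_SD against 25.3 to 26.3 CPM in SWAT_SD. It passed on both diets (log2 0.46, adjusted p = 0.00469 on HFD, and 0.63, adjusted p = 0.000419 on SD).

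Meis3 had log2 differences of 0.09 on HFD and 0.08 on SD, and neither passed. Pbx2, Pbx3 and Pbx4, which bind DNA with HOX proteins, had log2 differences of 0.17, 0.25 and −0.20 on HFD and 0.27, −0.05 and 0.43 on SD. Pknox1 (Prep1), which binds PBX and keeps it in the nucleus, had 0.22 on HFD and −0.05 on SD. Pknox2 (Prep2) was higher in VWAT on HFD (log2 0.52, adjusted p = 0.0164), but not when VWAT_HFD replicate 2 (0.0847) or SWAT_HFD replicate 3 (0.07) was left out, and on SD its log2 difference was −0.12.

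**Figure D3:**
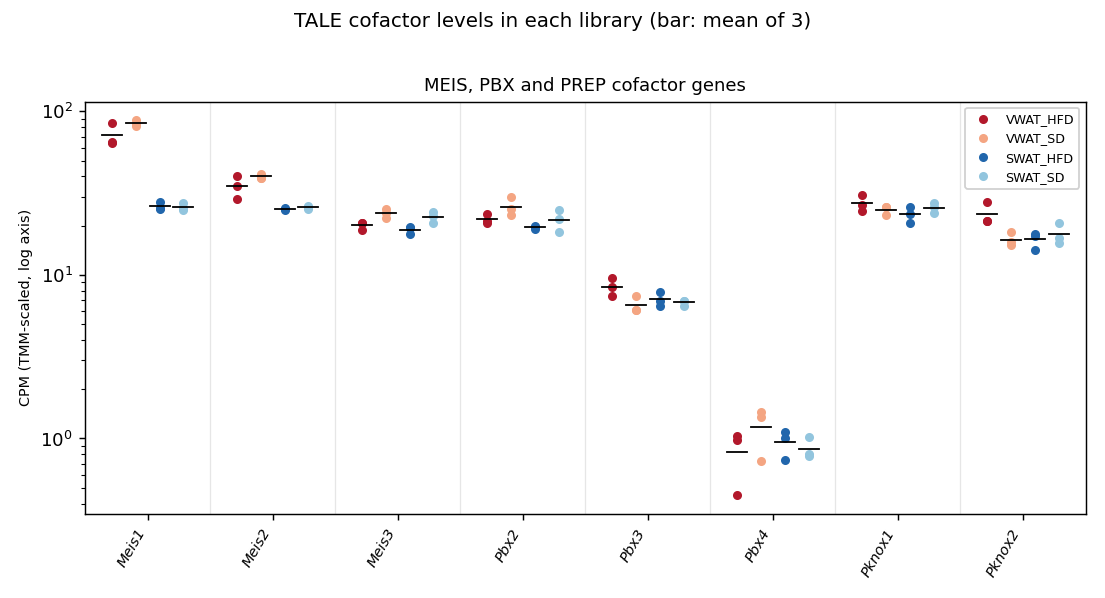
CPM of 8 TALE cofactors (y axis, log scale) in each of the 12 libraries, with 1 point per library and a line at each group mean. VWAT points of Meis1 and Meis2 lie above SWAT points, VWAT_HFD points of Pknox2 lie above those of VWAT_SD, and the groups overlap for Pknox1.

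SD libraries of the depots with the same replicate number deviated together (correlations 0.177, 0.178 and 0.398). They were taken as pairs from the data alone, and the fit below was chosen after seeing the data. With the number as a block in the 6 SD libraries alone, 23 of 35 members passed, 15 higher and 8 lower in VWAT, against 47.3% of all genes in that fit. The calls gained were Hoxb3 (0.53, adjusted p = 0.00627), Hoxd9 (0.57, adjusted p = 0.0125) and Pbx2 (0.26, adjusted p = 0.0029) as higher, and Hoxb4 (−0.20, adjusted p = 0.0381) and Hoxb6 (−0.21, adjusted p = 0.0368) as lower. Scaling by library size alone moved the median of all genes by 0.284 on HFD and 0.218 on SD. It gave 18 higher and 5 lower members on SD, against 12 and 6 with TMM (37.8% of all genes passed with it), and 19 higher and 6 lower on HFD (48.7% of all genes), and kept every named direction for the members called on both diets.

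VWAT libraries also differed from SWAT libraries in mesothelial markers. Of the 6 markers in the table (8 were listed), 4 were higher in VWAT on each diet (Wt1, Msln, Upk3b and Upk1b), 1 was lower (Krt19) and Lrrn4 did not pass. The 6 summed to 106 to 121 CPM in VWAT_HFD, 103 to 131 in VWAT_SD, 2.41 to 4.83 in SWAT_HFD and 2.75 to 4.59 in SWAT_SD. Nearly all of the VWAT sum was Wt1 (97.8 to 128 CPM), which visceral fat precursors are also known to express. Msln had 0.323 to 1.62 CPM in VWAT and at most 0.0309 CPM in SWAT, and Upk3b had 0.817 to 3.39 CPM in VWAT and at most 0.134 CPM in SWAT. Krt19 had 0.215 to 0.923 CPM in VWAT_HFD against 2 to 4.05 CPM in SWAT_HFD, and 0.55 to 0.701 CPM in VWAT_SD against 1.8 to 3.49 CPM in SWAT_SD. The precursor markers also split by depot, with sums of 12200 to 20500 CPM in VWAT_HFD against 37500 to 71700 CPM in SWAT_HFD, and 9850 to 11100 CPM in VWAT_SD against 28700 to 30900 CPM in SWAT_SD. The largest part of these sums was Col1a1, with 6880 to 14700 CPM in VWAT_HFD against 30500 to 64300 CPM in SWAT_HFD. On SD it had 4680 to 5600 CPM in VWAT_SD against 22300 to 24200 CPM in SWAT_SD. Of the 8 precursor markers, 4 were lower and 1 higher (Itgb1) in VWAT on HFD, and 5 were lower and none higher on SD. Pdgfra and Pdgfrb passed on neither diet. Of 6 mural markers, 2 were higher and 1 lower in VWAT on HFD, and 2 were higher and 2 lower on SD. On HFD 3 of 7 leukocyte markers were lower in VWAT than in SWAT, with a sum of 38.6 CPM in SWAT_HFD replicate 2 and at most 13.4 CPM in any other library. The part of these cells in the depot differences was not tested.

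On high-fat diet, few members changed in VWAT, and 3 of the 5 falls were of posterior Hox genes. There 6 of 35 members (17.1%) passed HFD against SD, against 15.6% of all genes tested, so the share was near the background. The 5 that fell were Hoxa10, Hoxc10, Hoxd9, Hoxa7 and Hoxc4 (6.98% of all genes fell), and Pknox2 rose (8.64% of all genes rose). By class, 3 of 7 posterior, 2 of 13 central and none of 6 anterior genes fell. The median log2 difference was −0.89 for posterior, −0.27 for central, −0.44 for anterior and −0.20 for TALE members, against −0.02 over all genes. VWAT_HFD libraries lay wholly below VWAT_SD libraries in 12 members, against 17.5% of all genes, and wholly above in 1 (Pknox2), against 15.5% of all genes.

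Hoxa10 had the largest fall, to 0.303, 0.361 and 0.409 CPM in VWAT_HFD against 0.799, 0.487 and 1.02 CPM in VWAT_SD. The groups did not overlap, and VWAT_SD replicate 2 came nearest to the HFD libraries. It fell by 1.12 on the log2 scale (SE 0.25, 2.17-fold, adjusted p = 0.011), with 55 counts in all in VWAT_HFD and 125 in VWAT_SD. Hoxc10 had 0.489, 0.602 and 0.452 CPM in VWAT_HFD against 1.09, 0.719 and 0.997 CPM in VWAT_SD, also without overlap. It fell by 0.87 (SE 0.20, 1.83-fold, adjusted p = 0.0111), with 80 counts in VWAT_HFD and 152 in VWAT_SD. Hoxd9 had 1.55, 1.32 and 1.38 CPM in VWAT_HFD against 2.36, 2.26 and 3.27 CPM in VWAT_SD. Again no HFD library reached an SD library, and it fell by 0.89 (SE 0.23, 1.85-fold, adjusted p = 0.0232).

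Hoxa7, a central gene, had 14.7, 12.5 and 17.8 CPM in VWAT_HFD against 19.4, 19.8 and 23.7 CPM in VWAT_SD. The groups did not overlap, and it fell by 0.48 (SE 0.14, 1.4-fold, adjusted p = 0.0404). Hoxc4 had 23.7, 26 and 33.9 CPM in VWAT_HFD against 34.7, 36.4 and 40.8 CPM in VWAT_SD. VWAT_HFD replicate 3 came close to the lowest SD library, and Hoxc4 fell by 0.42 (SE 0.13, 1.34-fold, adjusted p = 0.0493). Pknox2 rose, with 21.3, 28.1 and 21.4 CPM in VWAT_HFD against 18.2, 15.3 and 15.9 CPM in VWAT_SD (log2 0.52, SE 0.14, 1.43-fold, adjusted p = 0.0268). The HFD libraries were all higher, replicate 2 the most.

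**Figure D4:**
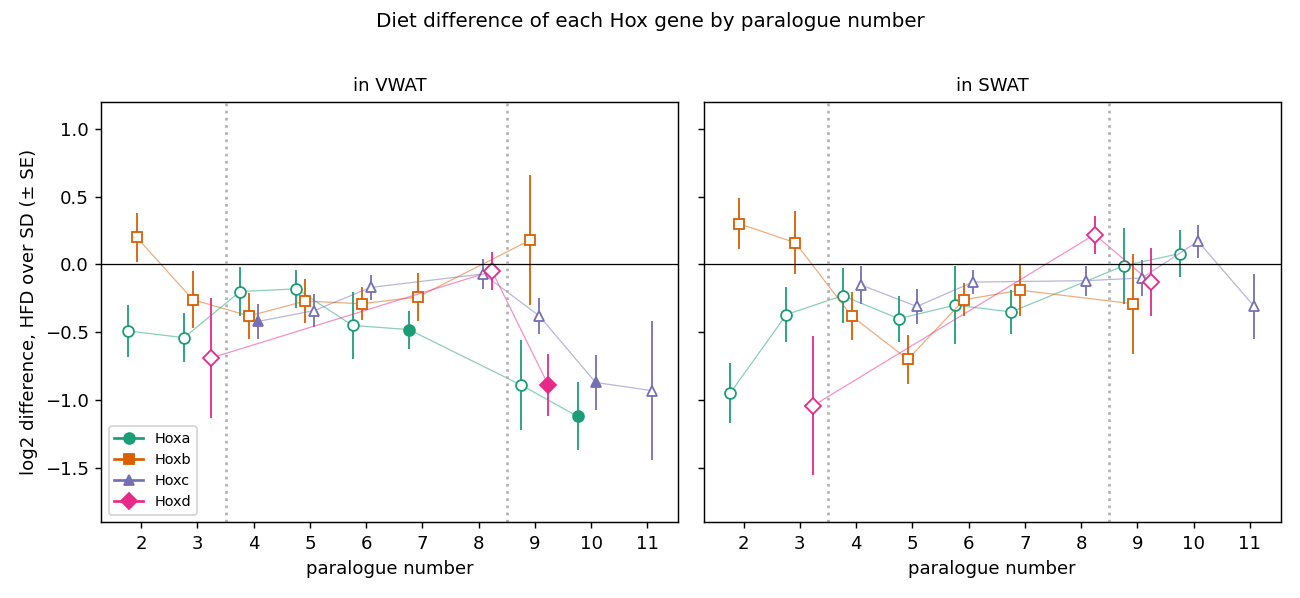
Log2 difference of HFD against SD (y axis, bars are ± 1 SE of the fit, filled symbols passed the test) by paralogue number (x axis), one colour per cluster, in VWAT and SWAT. The 7 posterior points lie between −1.12 and 0.18 in VWAT, 5 of them at −0.87 or below, and between −0.31 and 0.17 in SWAT, so the ranges overlap.

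The posterior genes that did not pass were Hoxa9 (log2 −0.89, adjusted p = 0.0878), Hoxc9 (−0.38, adjusted p = 0.0716), Hoxc11 (−0.93, adjusted p = 0.235) and Hoxb9 (0.18, adjusted p = 0.833). For Hoxa9, VWAT_SD replicate 2 at 0.444 CPM lay within the VWAT_HFD range of 0.27 to 0.516 CPM, and Hoxc11 rested on 12 counts in VWAT_HFD and 24 in VWAT_SD. The other central genes had log2 differences of −0.45 (Hoxa6) to −0.05 (Hoxd8), all 13 central values being below 0. The anterior genes had −0.69 (Hoxd3) to 0.20 (Hoxb2). Of the TALE genes, Meis1, Meis2 and Meis3 had −0.24, −0.20 and −0.25, Pbx2 and Pbx4 had −0.25 and −0.50, and Pbx3 and Pknox1 had 0.37 and 0.13. None of these passed.

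The number of VWAT calls depended on single libraries. It was 1 without VWAT_SD replicate 3 (Hoxc10), 2 without VWAT_HFD replicate 2, 3 without VWAT_HFD replicate 1, 4 without VWAT_SD replicate 2, 5 without VWAT_SD replicate 1 and 16 without VWAT_HFD replicate 3. The share of all genes called in these fits was 6.76%, 5.29%, 9.24%, 8.86%, 9.75% and 29.8%, in the same order, so it too was lower without 5 of the libraries and higher without VWAT_HFD replicate 3. With only the 6 VWAT libraries in the fit, 2 passed (Hoxd9 and Pknox2), against 8.87% of all genes in that fit. Hoxc10 kept its call when each of the 12 libraries was left out in turn, and lost it with limma voom (adjusted p = 0.0558) and in the fit of VWAT libraries alone (0.0787). Hoxa10 did not pass without VWAT_SD replicate 3 (adjusted p = 0.0553), and Hoxd9 without that library (0.109) or VWAT_HFD replicate 1 (0.0507) or 2 (0.102). Hoxa7 and Hoxc4 lost theirs without any one VWAT library other than VWAT_HFD replicate 3 (adjusted p up to 0.19 and 0.193). Both also lost them without SWAT_SD replicate 1 or 2, and Hoxc4 without SWAT_HFD replicate 1 or 2. Pknox2 did not pass without VWAT_HFD replicate 2, VWAT_SD replicate 2 or VWAT_SD replicate 3 (up to 0.15). VWAT_HFD replicate 3 was the highest of its group in 22 of the 30 members below 0. Cycling markers, 6 of 6 in the table, summed to 210, 335 and 88 CPM in VWAT_HFD against 24.3, 29.7 and 18.6 CPM in VWAT_SD, so this library was also the lowest of its group in them. The part of cycling cells in the diet differences was not tested.

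In SWAT no member passed HFD against SD by edgeR, against 1.11% of all genes tested. At an unadjusted p under 0.05 there were 7 members (14.9% of all genes), with DESeq2's Wald test 2 passed (Hoxa2 and Hoxb5), where 3.76% of all genes did, and with limma voom none (0.0841% of all genes). The median was −0.15 over members, with −0.10 for posterior, −0.26 for central, −0.53 for anterior and −0.03 for TALE members, against 0.00 over all genes. SWAT_HFD lay wholly below SWAT_SD in 6 members (Hoxa2, Hoxa3, Hoxa7, Hoxb5, Hoxc5 and Meis3), against 10.2% of all genes. Hoxa2, which sets hindbrain and branchial arch identity, had 1.34, 1.3 and 1.27 CPM in SWAT_HFD against 2.51, 2.45 and 2.57 CPM in SWAT_SD. Its groups were far apart, but the adjusted p was 0.0628 (log2 −0.95, SE 0.22). It passed without VWAT_HFD replicate 3 (0.00959) or 2 (0.0269) and with only the 6 SWAT libraries in the fit (0.0249), and Hoxb5 passed without VWAT_HFD replicate 3 (0.0379).

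No posterior gene passed in SWAT, where their log2 differences were −0.31 to 0.17. Hoxa10 differed by 0.08 (95% interval −0.26 to 0.42) and Hoxc10 by 0.17 (−0.07 to 0.42) on the log2 scale. Cycling markers summed to 75.3 to 106 CPM in SWAT_HFD against 10.6 to 17.2 CPM in SWAT_SD.

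The diet effect was not shown to differ between depots for any member. The interaction (diet effect in VWAT minus that in SWAT) passed for 0 of 35 members and 0% of all genes by edgeR. It passed for 0 members by DESeq2 (0.245% of all genes) and limma voom (0% of all genes). At an unadjusted p under 0.05 there were 4 members (7.19% of all genes), which were Hoxa10, Hoxc10, Hoxd9 and Pknox2. Their interaction values were −1.20 (SE 0.31, adjusted p = 0.478), −1.04 (SE 0.23, adjusted p = 0.452), −0.77 (SE 0.34, adjusted p = 0.679) and 0.64 (SE 0.20, adjusted p = 0.508). The posterior median was −0.77, and that of the central class −0.03. For Hoxa7 and Hoxc4 the values were −0.13 and −0.27.

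Other TALE homeobox genes differed by depot too. Of 9 listed genes 6 were in the table, and 4 were lower in VWAT on HFD (13.4% of all genes were) and all 6 on SD (12.5% of all genes were). Irx1, Irx2 and Irx5, Iroquois-family genes that act in limb, heart and nerve patterning, had the lowest adjusted p-values. Irx1 had 0.0674, 0.181 and 0 CPM in VWAT_HFD against 14.6, 20 and 16.1 CPM in SWAT_HFD, and 0.034, 0.127 and 0.0738 CPM in VWAT_SD against 15.9, 19.3 and 20.6 CPM in SWAT_SD. The depots were wholly apart. Irx2 was lower in VWAT by a log2 of −5.86 on HFD and −5.91 on SD, and Irx5 by −6.97 and −6.10. In VWAT on HFD, Tgif1, Tgif2 (repressors of TGF-beta signalling) and Irx3 rose, by 0.67, 0.81 and 1.42 (8.64% of all genes rose).

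Of 28 listed transcripts in or beside the Hox clusters, 6 were in the table. Hoxb3os, an antisense transcript over Hoxb3 and Hoxb2, fell in VWAT on HFD, with 3.64, 3.81 and 4.88 CPM in VWAT_HFD against 5.83, 5.37 and 6.11 CPM in VWAT_SD (log2 −0.49, adjusted p = 0.0362). It was higher in VWAT on SD (log2 0.56, adjusted p = 0.0125). In GRCm38 its exons cover 52.9% of the exon bases of Hoxb3 on the other strand. Cbx5 and Skap2, which flank clusters c and a, were higher in VWAT by 0.75 and 0.29 on HFD and 0.76 and 0.27 on SD. Mtx2, Lnp and Smug1 passed between depots on neither diet. Of the 6 transcripts, 2 were higher in VWAT on HFD (13.4% of all genes were) and 3 on SD (13.2% of all genes were), and none was lower. In that annotation 15 of 35 members share exon bases with another gene on either strand, 8 of them on the same strand, and the counts of those are uncertain.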

How the data were processed

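Strand-marking (dUTP) poly(A) libraries were sequenced as single reads of 75 bp, per the labels' protocols. The deposited file was 1 table of raw read counts per gene. Reads were aligned with TopHat and counted with HTSeq on the build mm9, per the submitters' processing notes, with versions and the strand setting not given in the sources used here. Its 3 entries that name no gene held 3.53 to 5.57% (no feature), 1.71 to 1.95% (ambiguous) and 15 to 20.8% (not unique) of each library and were left out. Genes passed edgeR's filterByExpr by group and were tested by edgeR 4.0.16's quasi-likelihood F test (robust, TMM, R 4.3.3) in 1 fit of 4 groups over 12 libraries, with Benjamini-Hochberg adjusted p under 0.05 over all genes. In each depot HFD was set against SD, and on each diet VWAT against SWAT. With the difference of the diet effects this made 5 contrasts. SE is the absolute log2 difference over the square root of F, and the 95% interval comes from it. Counting intervals are exact and cover counting error only. The labels do not say that the pools came from separate mice, so p-values measure the spread between libraries. Between libraries no duplicate was found.

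Alternatives were RLE or library-size scaling, no filter, a mean CPM of at least 5, DESeq2 1.42.0, limma 3.58.1 voom, only the libraries compared, a replicate block and each library left out. The script was tested on simulated data. The members and gene lists were chosen with earlier results of these data known. Values of every library are given for members that passed a diet contrast and for the 8 members with the largest differences among those that passed in each depot contrast. Of the listed related genes, up to 3 with the lowest adjusted p per contrast are named. Values of 2 members are not reported here. Same-numbered libraries of VWAT_SD and SWAT_SD deviated together (correlations of deviations from group means 0.177, 0.178 and 0.398). They were taken as pairs from the data alone. No other pair of groups had 3 correlations above 0.1. Promoter windows are from RefSeq, and shared exon bases from GENCODE (build GRCm38), a later build than that of the counts.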

Additional observations from a re-analysis of the deposited data

How the results depend on the processing

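Against 6 members called in VWAT by diet, library size as the only scaling gave 11 (1 higher and 10 lower, 18.4% of all genes called). A fit of only the libraries compared gave 2 (8.87%), and a filter at mean CPM 5 gave 4 of 21 tested (16.3%). Leaving out each library gave 1 to 16 (5.29% to 29.8% of all genes). Against 0 in SWAT, library size alone gave 2 (1.84% of all genes), DESeq2 2 (3.76%) and only the libraries compared 1 (2.57%). With each library left out it was 0 to 2 (0% to 4.29% of all genes). Against 18 in each depot contrast, the filter at mean CPM 5 gave 11 of 21 tested, since fewer members were tested. It called 25.1% of all genes on HFD and 23.7% on SD. Leaving out each library gave 17 to 19 on HFD (19.9% to 30.5% of all genes) and 16 to 19 on SD (20% to 30.8%). The interaction stayed at 0 members under every alternative run, where 0% to 0.942% of all genes passed (0.942% without VWAT_HFD replicate 3). Its Hoxa7 value of −0.13 ranged from −0.27 to 0.00 when each library was left out (0.00 without SWAT_HFD replicate 1), and changed sign to 0.02 without that library and SWAT_SD replicate 3 together, an alternative chosen after seeing the data, as was the block within the 6 SD libraries. The cause was not tested. With the replicate block over all 12 libraries, 8 members passed in VWAT by diet (1 higher and 7 lower), where 16% of all genes did. With that block 0 members passed in SWAT (1.73% of all genes) and in the interaction (0.00701%). In each depot contrast 18 passed, against 26.5% of all genes on HFD and 25.7% on SD. Outside the SD depot contrast, whether same-numbered libraries share anything was not settled. All 6 VWAT diet calls were lost under some alternative. Of the 18 depot calls, 17 on HFD and 16 on SD held under every alternative that tested them. Depth limits Hoxc11, Hoxb9 and Hoxd3 most, with 12 to 53 counts per VWAT group.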

Other observations

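Of 26 listed chromatin regulators of Hox genes 25 were tested, and in VWAT on high-fat diet 3 rose and 2 fell. Of all genes 8.64% rose and 6.98% fell, so these counts are near the background. Dot1l, a histone H3 methyltransferase, rose by 1.03 on the log2 scale (SE 0.13, adjusted p = 0.000808), and Ezh2, the Polycomb methyltransferase, by 0.80 (SE 0.16, adjusted p = 0.0069). Cbx7, a Polycomb reader, fell by 1.57 (SE 0.24, adjusted p = 0.00162). The median over the 25 genes was 0.00. Between depots, 3 were higher in VWAT on each diet, and 2 on HFD and none on SD were lower, where 13.4% of all genes passed in each direction on HFD, and 13.2% as higher and 12.5% as lower on SD. Those with the lowest adjusted p were Dot1l (0.85), Psip1 (0.53) and Cbx7 (−0.93) on HFD, and Jarid2 (0.56), Cbx6 (0.35) and Psip1 (0.30) on SD.

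Of 17 listed upstream regulators and inhibitors 13 were tested. In VWAT on high-fat diet 3 rose and 4 fell, against 8.64% and 6.98% of all genes. Gmnn (geminin), which binds HOX proteins and limits DNA replication, rose by 2.43 (SE 0.36, adjusted p = 0.00134). Cyp26b1, which breaks down retinoic acid, fell by 2.42 (SE 0.46, adjusted p = 0.00464), and Rarg, a retinoic acid receptor, fell by 0.62 (SE 0.10, adjusted p = 0.00189). In SWAT, Cyp26b1 fell by 2.35 (SE 0.35, adjusted p = 0.0189). Between depots, Cyp26b1 was lower in VWAT by a log2 difference of −4.44 on HFD and −4.36 on SD, and Rarg by −1.20 and −0.93. Aldh1a2, which makes retinoic acid, was higher in VWAT by 2.07 on HFD and 1.34 on SD. Aldh1a3 was higher by 1.15 on SD but did not pass on HFD (0.28), and it fell in VWAT on high-fat diet (−0.61, adjusted p = 0.0337). Of the 13, 2 were higher and 5 lower in VWAT on HFD, where 13.4% of all genes passed in each direction. On SD 3 were higher (13.2% of all genes) and 3 lower (12.5%). Gmnn and Ezh2 are also higher in dividing cells, and cycling markers were higher in both HFD groups, whose part in these values was not tested.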
